A study of Mus musculus with 16 samples.

Results

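Macrophages of mouse retroperitoneal fat, the fat pad along the rear wall of the abdomen, were followed through 10 genes that these cells are known to express strongly: Ctss, Lgals3, Lyz2, Cd68, Csf1r, C1qa, C1qb, C1qc, Itgam and Fcer1g. The members were taken as all probe sets whose single gene symbol in the platform annotation is one of these names, which gave 15 probe sets for 10 of the 8251 genes named on the array. For each gene the probe set with the highest mean signal was used, and the others are given beside it. Of the 10 genes, 9 were above the limit on low signals and were tested among 5686 genes, and Fcer1g was below it.

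All 16 arrays came from gonadectomised (GDX) mice, so that the animals given vehicle were without gonads as well. In females, 6 arrays came from GDX mice given a subcutaneous dose of 0.1 mg dihydrotestosterone (DHT), a potent androgen, between 1 h and 24 h before sacrifice (1 array each at 1, 3, 6, 12, 18 and at 24 h), and 2 arrays from GDX mice given vehicle. In males there were likewise 6 arrays after DHT, 1 for each time, and 2 after vehicle. The labels attach a time of 24 h to the vehicle samples without saying what it counts from. The labels give no age or strain, and say that the fat of all mice in a group was gathered, so an array may hold RNA of several animals. They do not say that the paired vehicle arrays came from separate animals, so the spread behind the p-values is that between arrays and may be technical.

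Macrophages are phagocytes of the tissue that engulf dying cells and debris and break them down in lysosomes. In fat they lie among the adipocytes and become more numerous in obesity, where some take up lipid from dying fat cells. Their survival depends on signals through the receptor Csf1r, and their identity on the transcription factor PU.1, the product of Spi1. Among the members, Ctss encodes cathepsin S, a lysosomal protease that trims the invariant chain for antigen presentation, and Lyz2 encodes the lysozyme of myeloid cells. Lgals3 encodes galectin-3, a lectin that binds galactosides, and Cd68 a membrane glycoprotein of late endosomes and lysosomes. C1qa, C1qb and C1qc encode the chains of C1q, the recognition molecule of the classical complement pathway. Itgam encodes the alpha chain (CD11b) of a leucocyte integrin that binds complement fragments, and Fcer1g the gamma chain through which several Fc receptors signal.

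The C1q genes neighbour each other on chromosome 4 (GRCm38), with C1qb at chr4:136880126-136886200, C1qc at chr4:136889801-136892936 and C1qa at chr4:136895916-136898844. The other members lie apart, among them Ctss at chr3:95526786-95556405, Lgals3 at chr14:47373860-47386167 and Lyz2 at chr10:117277541-117282272. The start regions of 8 of the 10 members were found in RefSeq (GRCm38.p6), each 300 bases long and read 5′ to 3′ on the gene's strand. Those of 5 members are printed here, namely Ctss, Lgals3 and Lyz2, which differed most between the sexes, and the C1q chains C1qb and C1qc, which differed less. Capitals mark either of a pair of motifs searched on both strands, the PU.1 core GAGGAA (reverse TTCCTC) and TGTTCT (reverse AGAACA), a half-site of the element bound by androgen and glucocorticoid receptors. The motifs do not overlap each other in these windows.
Ctss, chr3:95526536-95526835, plus strand: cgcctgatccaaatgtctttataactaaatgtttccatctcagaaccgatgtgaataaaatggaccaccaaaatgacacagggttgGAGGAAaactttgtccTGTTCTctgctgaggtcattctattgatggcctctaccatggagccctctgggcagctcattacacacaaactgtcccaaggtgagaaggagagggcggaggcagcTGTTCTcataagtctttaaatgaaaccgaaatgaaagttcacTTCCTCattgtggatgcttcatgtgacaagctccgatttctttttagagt
Lgals3, chr14:47373610-47373909, plus strand: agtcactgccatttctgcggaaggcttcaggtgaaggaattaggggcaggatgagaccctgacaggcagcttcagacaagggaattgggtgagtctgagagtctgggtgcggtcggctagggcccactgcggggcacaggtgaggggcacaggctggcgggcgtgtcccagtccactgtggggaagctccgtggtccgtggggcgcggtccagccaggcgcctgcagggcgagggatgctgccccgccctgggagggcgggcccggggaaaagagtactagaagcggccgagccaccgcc
Lyz2, chr10:117282223-117282522, minus strand: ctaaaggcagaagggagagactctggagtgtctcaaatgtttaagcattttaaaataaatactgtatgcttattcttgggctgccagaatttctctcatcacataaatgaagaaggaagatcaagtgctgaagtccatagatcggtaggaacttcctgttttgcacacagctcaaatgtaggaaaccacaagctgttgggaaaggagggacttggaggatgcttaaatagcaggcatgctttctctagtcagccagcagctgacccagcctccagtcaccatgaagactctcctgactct
C1qb, chr4:136886151-136886450, minus strand: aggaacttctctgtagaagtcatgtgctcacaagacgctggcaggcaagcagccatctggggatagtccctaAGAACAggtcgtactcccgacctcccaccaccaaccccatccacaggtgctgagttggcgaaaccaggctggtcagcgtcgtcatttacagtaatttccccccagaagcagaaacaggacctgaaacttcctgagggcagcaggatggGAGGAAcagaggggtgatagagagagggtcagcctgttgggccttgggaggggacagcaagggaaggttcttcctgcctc
C1qc, chr4:136892865-136893164, minus strand: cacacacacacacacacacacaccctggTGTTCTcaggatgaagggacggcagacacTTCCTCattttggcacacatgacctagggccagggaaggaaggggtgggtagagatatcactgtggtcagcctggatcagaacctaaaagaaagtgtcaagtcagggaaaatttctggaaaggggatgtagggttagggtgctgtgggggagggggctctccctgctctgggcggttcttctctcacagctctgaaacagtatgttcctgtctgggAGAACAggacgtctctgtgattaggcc
The PU.1 core was found in 5 of the 8 member windows (Ctss, Cd68, C1qb, C1qc and Itgam), against 28.3% of all 32851 windows of the same length. TGTTCT was found in 3 of the 8 (Ctss, C1qb and C1qc), against 19.0% of all windows. Lgals3 and Lyz2 held neither, and such short matches describe letters, not bound sites.

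The values are linear MAS5 signals, scaled so that every array had nearly the same trimmed mean, and signals of different probe sets are not compared with each other. The labelled tissue was visible in the adipocyte genes, with Adipoq (adiponectin) between 19206 and 31645 on 15 arrays. On the remaining array, replicate 2 of the male vehicle group, Adipoq was at 1946 while muscle genes were high. The summed signal of 18 skeletal muscle genes was 372362 there, against 20441 to 72265 on the other 15 arrays. That array is called the muscle-rich array, and results are given with all 16 arrays and with the 15 others. A female DHT array at 12 h also stood apart, with a summed signal of 5 exocrine pancreas genes of 54459, against 770 to 3281 on the other 15 arrays. In bulk tissue, fewer macrophages, less RNA per macrophage and signal of these genes from other cells cannot be told apart.

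On the muscle-rich array the macrophage genes were low together. Each of the 9 tested members was lower there than on any other array, where 32.7% of all tested genes did the same, and 40.2% were lower there than on the other male arrays alone. Ctss was at 651 on the muscle-rich array, against 1850.9 ± 373 on the other male arrays (SD, n = 7). C1qc was at 1033 on it, against 6984 ± 984 on the other male arrays. The low values were not equal in size. Relative to the average over the other male arrays, the signal was lowest for C1qc (0.148), Itgam (0.160), Lgals3 (0.171) and C1qa (0.174). It was 0.223 for C1qb and 0.226 for Cd68, and highest for Lyz2 (0.310), Ctss (0.352) and Csf1r (0.428). These are values of 1 array, with no replicate and no test. Levels are relative to the whole array, so the share taken by muscle RNA enters each of them.

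The less bright probe sets of the members mostly did not follow this. The second probe set of C1qb was at 991 on the muscle-rich array, against 248 to 436 on the other male arrays, which is higher rather than lower. The second probe sets of Lyz2 (73.8, against 4.88 to 40.5) and Cd68 (2.39, against 2.76 to 7.58) were below the limit on low signals, and nothing is read from them. The second probe set of Csf1r (272) lay inside the range of the other male arrays (168 to 691), as did the less bright probe set of Fcer1g (47.4, against 26.4 to 67.5). The probe sets of C1qb thus disagreed on this array, and the results for each gene rest on the brighter one.

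**Figure D1:**
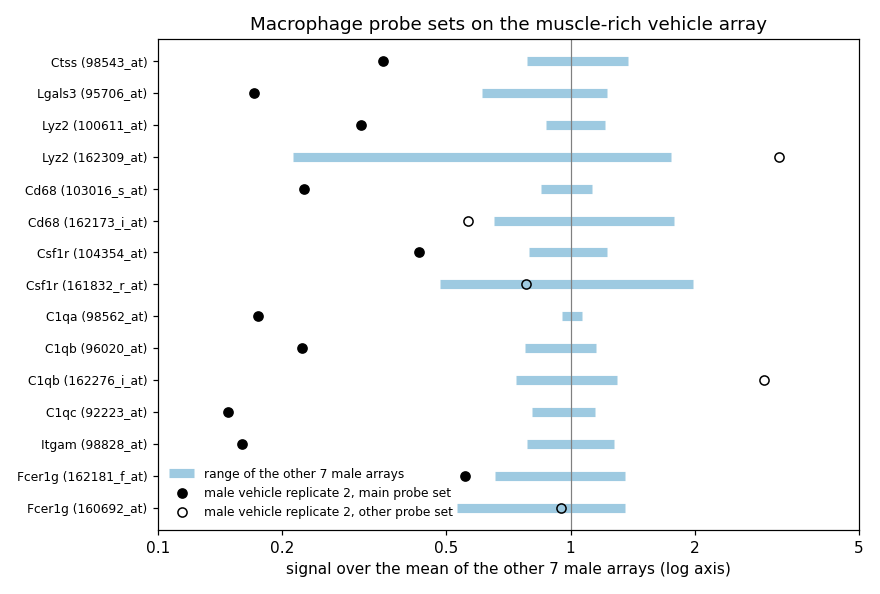
Signal on the muscle-rich array (male vehicle replicate 2) divided by the mean of the other 7 male arrays, on a log axis, for the 15 probe sets of the 10 genes. Filled points are the probe sets used for each gene, open points the others, and bars span the other 7 male arrays. The filled points lie to the left of the bars, from 0.148 for C1qc to 0.553 for Fcer1g, while the second probe set of C1qb (2.95) lies to the right, as does that of Lyz2 (3.21), whose signals are below the limit on low signals.

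The main question of the design is whether DHT changed the depot. For the macrophage genes no change with DHT was detected. With all 16 arrays, 0 of the 9 tested members passed an adjusted p of 0.05 for the 12 DHT arrays against the 4 vehicle arrays (limma), where 0.0703% of all tested genes did. All 9 differences were positive, where 55.4% of all genes were. They lay between 0.16 for Csf1r and 0.74 for Itgam on the log2 scale, with a median of 0.51 where that of all genes was 0.04. Their adjusted p (limma) lay between 0.630 and 0.770. Without the muscle-rich array the differences were no longer of one sign. Again 0 of 9 passed, where 0.0879% of all genes did. Of the differences 3 of 9 were positive, with a median of -0.04, where 51.2% of all genes were positive. Over all genes, 290 had an unadjusted p under 0.05 with 16 arrays and 174 with 15.

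The signals show the same gene by gene. Ctss ranged from 4070 to 5744 on the female DHT arrays, with a median of 4371, and was at 4277 and 5195 on the female vehicle arrays. In males Ctss ranged from 1450 to 2555 after DHT, with a median of 1773, and was at 1684 on the vehicle array that was not muscle-rich. Each vehicle value lay inside the DHT range of its sex. The difference over 15 arrays was 0.03 ± 0.10 (log2, SE), with a 95% interval from -0.19 to 0.26.

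C1qa ranged from 5480 to 7371 after DHT in females, with a median of 6516, and was at 6632 and 6300 after vehicle. In males it ranged from 5097 to 5702 after DHT, with a median of 5328, and was at 5420 after vehicle. The C1qa difference over 15 arrays was -0.01 ± 0.09 (log2, SE), with an interval from -0.20 to 0.18. This was the narrowest interval among the members.

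Itgam and C1qb marked the ends of the range over 15 arrays. Itgam ranged from 245 to 536 on the female DHT arrays, with a median of 302, and was at 357 and 188 on the female vehicle arrays. In males it was between 179 and 289 after DHT, with a median of 222, and at 221 after vehicle. The Itgam difference was 0.25 ± 0.22, with an interval from -0.24 to 0.73, so an increase of this size was not detectable with these arrays. C1qb ranged from 2722 to 4267 after DHT in females, with a median of 3368, against 3286 and 4886 after vehicle. In males it ranged from 2140 to 3131, with a median of 2674, against 3174. Its difference was -0.26 ± 0.14, with an interval from -0.57 to 0.05. The high female vehicle value of C1qb and the low one of Itgam came from the same array, replicate 2.

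**Figure D2:**
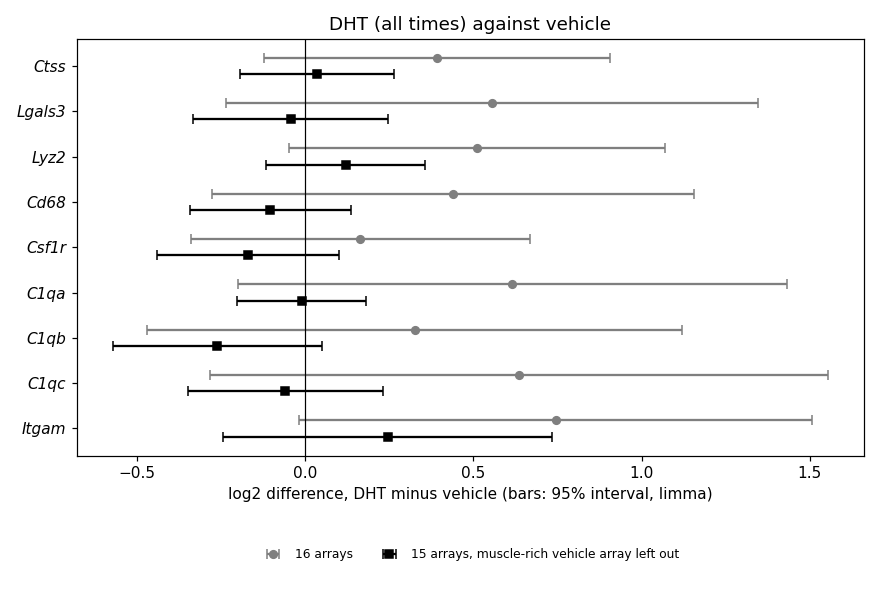
Difference of the 12 DHT arrays minus the vehicle arrays (log2 scale) for the 9 tested macrophage genes, with 95% intervals from limma. Grey circles use 16 arrays, and black squares the 15 arrays without the muscle-rich one. The circles lie between 0.16 and 0.74 and the squares between -0.26 and 0.25, and each interval covers 0.

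No single time stood out by the test either. From 1 h up to 24 h, each time against vehicle, 0 of 9 members passed with 16 arrays, where in order of time 0%, 0.0176%, 0.0528%, 0.0528%, 0% and 0% of all genes did. With 15 arrays it was again 0 of 9 at each time, where 0%, 0.0176%, 0.0879%, 0.0703%, 0.0352% and 0.0176% of all genes passed. At 24 h with 15 arrays, 8 of 9 differences were positive, with a median of 0.16. Of all genes 52.5% were positive there, with a median of 0.01. The highest were Ctss at 0.42 ± 0.15 and Lyz2 at 0.39 ± 0.15 (log2, SE), each with an adjusted p of 0.999 (limma). The 24 h array held the highest Ctss, Lgals3, Csf1r and C1qb signal of the DHT arrays in both sexes. For Ctss that was 5744 in females and 2555 in males, and for Lgals3 1784 in females and 804 in males. Male Lgals3 was nearly as high at 1 h (802). No other tested member was highest at 24 h in both sexes. Male Lyz2 was highest at 1 h (4178), and C1qa at 3 h in males (5702) and 18 h in females (7371). The share of all genes with their highest signal at 24 h in both sexes was not counted.

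**Figure D3:**
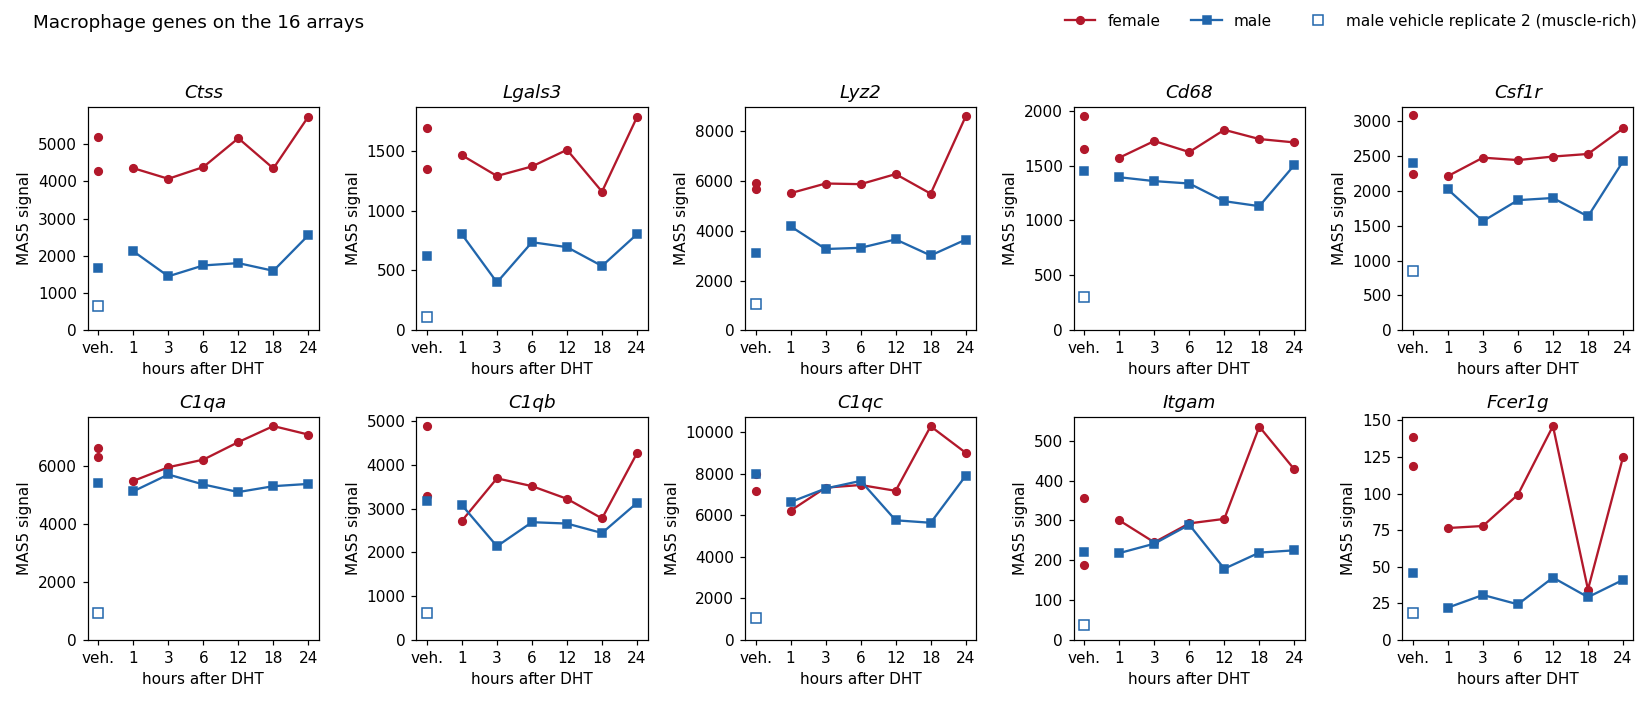
MAS5 signal of the 10 macrophage genes on the 16 arrays, with vehicle at the left and the hours after DHT to its right. Red circles are female arrays, blue squares male arrays, and the open square is the muscle-rich array. The Ctss, Lgals3, Lyz2 and Cd68 points of females lie above those of males throughout, while the ranges of the other 6 genes overlap between the sexes.

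Late DHT times (12, 18 and 24 h) were compared with early ones (1, 3 and 6 h), a comparison whose estimate uses no vehicle array. The spread behind its p-values does, and with 16 arrays it includes the muscle-rich array. The SE of the members was 0.230 to 0.420 with 16 arrays and 0.078 to 0.199 with 15. With 16 arrays, 0 of 9 members passed, where 0% of all genes did and 146 genes had an unadjusted p under 0.05. With 15 arrays 0 of 9 passed, where 0.0352% of all genes did and 407 had such a p. On the 12 DHT arrays 0 of 9 passed, where 0.0703% did and 447 had such a p. Of the differences, 8 of 9 were positive, from -0.01 for Cd68 to 0.20 for Ctss, where 46.5% of all genes were positive. In females the 3 late arrays lay above the 3 early arrays for 3 of 9 members (Csf1r, C1qa and Itgam), where 6.14% of all genes did so. C1qa was at 6818, 7371 and 7077 on the late female arrays, against 5480, 5952 and 6214 on the early ones. Itgam was at 304, 536 and 428 on the late female arrays, against 300.3, 245 and 293 on the early ones. In males 0 of 9 members showed this, where 4.43% of all genes did.

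A technical level moved with these female arrays. The mean log2 signal of 6 antisense control probe sets to beta-actin and Gapdh, which should find no target, was 8.84 to 9.96 on the late female arrays, against 6.38 to 6.75 on the early ones. On the male arrays it was 8.68 to 9.07 late, against 6.71 to 9.28 early. Over the 15 arrays, taken as deviations from the mean of each sex, it correlated with C1qa (r = 0.83), Itgam (r = 0.58) and C1qc (r = 0.53). For Ctss (r = 0.02), Csf1r (r = 0.00) and Lyz2 (r = -0.08) the correlation was close to 0. The summed fibroblast genes listed further on moved with the same members, at r = 0.87 for C1qa, 0.65 for Itgam and 0.77 for C1qc, and so did the summed adipocyte genes, at 0.70, 0.63 and 0.63 in that order. These correlations are descriptions over 15 arrays that share their scaling, and the part of the fibroblast and adipocyte levels in the late against early values was not tested. When the antisense level was added to the fit, again 0 of 9 members passed for late against early DHT, but signs turned. In females the level itself split late from early arrays, so this fit cannot cleanly separate the level from time. Whether the level accounts for the late values was not tested. With 15 arrays and the level in the fit, C1qa was at -0.02, C1qc at -0.16 and Itgam at -0.41 (log2), against 0.12, 0.07 and 0.15 without it, and 5 of 9 differences were positive. With 16 arrays and the level in the fit 1 of 9 was positive, Csf1r at 0.01.

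The clearest pattern among the macrophage genes was a difference between the sexes. With all 16 arrays, 3 of the 9 tested members were higher in GDX females than in GDX males (limma, adjusted p under 0.05), where 4.63% of all genes were higher and 5.75% differed either way. These were Ctss, Lgals3 and Lyz2, the protease, the lectin and the lysozyme. Without the muscle-rich array Cd68, Csf1r and C1qa passed as well, which made 6 of 9, where 8.83% of all genes were higher and 16.6% differed. None of the 9 was lower in females on the probe set used for it. The 3 calls made with 16 arrays were kept without the 12 h female array that held pancreas genes. On the 12 DHT arrays alone 5 passed (Ctss, Lgals3, Lyz2, Cd68 and Csf1r), where 7.35% of all genes were higher, 5.87% lower and 13.2% differed either way.

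Ctss ranged from 4070 to 5744 on the 8 female arrays, with a median of 4371. On the 7 male arrays that were not muscle-rich it ranged from 1450 to 2555, with a median of 1742. The ranges lay far apart, and at matched DHT times the female signal was 2.05 to 2.86 times the male one. The difference was 1.53 ± 0.20 with 16 arrays (log2, SE, limma adjusted p = 0.00117) and 1.35 ± 0.08 with 15 (adjusted p = 8.70e-07).

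Lgals3 ranged from 1160 to 1784 in females, with a median of 1418, and from 401 to 804 in the 7 males, with a median of 695. The groups did not overlap here either. Its ratio at matched times was 1.83 to 3.22. The Lgals3 difference was 1.44 ± 0.31 with 16 arrays (adjusted p = 0.0190, limma) and 1.14 ± 0.11 with 15 (adjusted p = 2.30e-05). With 16 arrays the call was lost when the 3 h DHT array of the females (adjusted p = 0.0559, limma) or of the males (0.0557) was left out.

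Lyz2 ranged from 5492 to 8598 in females, with a median of 5887, and from 3007 to 4178 in the 7 males, with a median of 3315. The highest female value, 8598 at 24 h, stood above the other 7, of which none exceeded 6279. The matched ratio was 1.32 to 2.36. The Lyz2 difference was 1.03 ± 0.22 with 16 arrays (adjusted p = 0.0176, limma) and 0.84 ± 0.09 with 15 (adjusted p = 4.93e-05). With 16 arrays it was lost without the 24 h DHT array of the females (adjusted p = 0.0514, limma) or of the males (0.0509).

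Cd68 was the fourth member whose 8 female arrays all lay above all 8 male arrays, with Ctss, Lgals3 and Lyz2. This held for 4 of 9 members and for 3.46% of all tested genes. The same 4 were apart without the muscle-rich array (3.92% of all genes) and between the 6 female and 6 male DHT arrays (4.92%). Cd68 ranged from 1571 to 1950 in females, with a median of 1717, and from 1130 to 1504 in the 7 males, with a median of 1358. The gap was narrow, and the 15-array difference of Cd68 was 0.36 ± 0.09 (log2, SE, limma adjusted p = 0.0152), against 0.63 ± 0.28 with 16 (adjusted p = 0.246).

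Csf1r, the receptor on which macrophages depend, ranged from 2211 to 3089 in females, with a median of 2484, and from 1565 to 2423 in the 7 males, with a median of 1897. Its groups overlapped, and females were higher at each of the 6 matched times, by 1.09 to 1.58 times. The second probe set of Csf1r went the other way. It ranged from 104 to 754 in females, with a median of 172, and from 168 to 691 in the 7 males, with a median of 340. On the brighter probe set the Csf1r difference was 0.36 ± 0.10 with 15 arrays (adjusted p = 0.0293, limma) and 0.52 ± 0.20 with 16 (adjusted p = 0.162). With 15 arrays and the antisense level in the fit it missed the threshold, at 0.30 (adjusted p = 0.0568, limma).

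The C1q chains showed smaller differences. C1qa ranged from 5480 to 7371 in females, with a median of 6466, and from 5097 to 5702 in the 7 males, with a median of 5357. The C1qa difference was 0.27 ± 0.07 with 15 arrays (adjusted p = 0.0200, limma), but on the 12 DHT arrays alone it missed the threshold (0.28 ± 0.08, adjusted p = 0.0544). C1qb ranged from 2722 to 4886 in females, with a median of 3399, and from 2140 to 3174 in the 7 males, with a median of 2689. Its difference of 0.32 ± 0.11 with 15 arrays missed the threshold (adjusted p = 0.0802, limma). The second probe set of C1qb had a median of 305 in females and 319 in the 7 males, with means of 352 and 336. C1qc ranged from 6225 to 10288 in females, with a median of 7398, and from 5643 to 7986 in the 7 males, with a median of 7292. The C1qc medians nearly met, and the difference was 0.16 ± 0.11 with a 95% interval from -0.08 to 0.39 (adjusted p = 0.375, limma). Females were above males at 5 of 6 matched times for C1qb and at 4 of 6 for C1qc. The other 7 tested members were higher in females at all 6, as were 10.9% of all genes.

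Itgam, the integrin chain, ranged from 188 to 536 in females, with a median of 302, and from 179 to 289 in the 7 males, with a median of 221. The Itgam groups overlapped over most of the male range, and the difference was 0.49 ± 0.18 with 15 arrays (adjusted p = 0.0854, limma). With the antisense level in the fit Itgam passed, at 0.68 with 15 arrays (adjusted p = 0.00536, limma) and 0.95 with 16 (adjusted p = 0.0379). Fcer1g was low throughout. Its brighter probe set ranged from 34.4 to 146 in females, with a median of 109, and from 22.0 to 45.7 in the 7 males, with a median of 30.7. When all 12422 probe sets were tested without a limit on low signals, this probe set of Fcer1g was 1.25 ± 0.21 higher in females with 16 arrays (adjusted p = 0.00548, limma, where 3.53% of probe sets passed) and 1.14 ± 0.19 with 15 (adjusted p = 0.00278, where 8.86% did). The other probe set of Fcer1g went the opposite way, by -0.38 ± 0.17 with 16 arrays (adjusted p = 0.306, limma), so that the gene's direction was not settled.

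**Figure D4:**
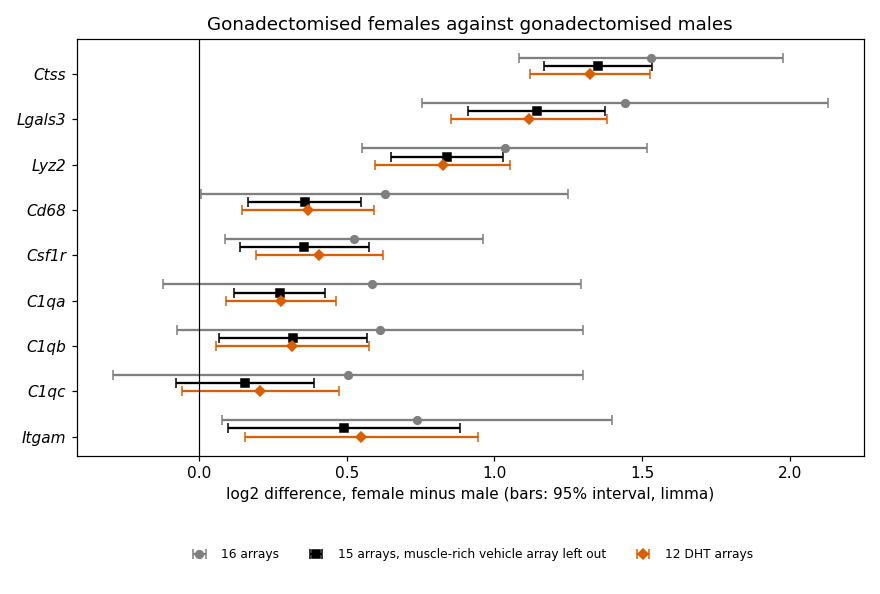
Difference of females minus males (log2 scale) for the 9 tested macrophage genes, with 95% intervals from limma. Grey circles use 16 arrays, black squares the 15 arrays without the muscle-rich one, and orange diamonds the 12 DHT arrays. Ctss, Lgals3 and Lyz2 lie furthest to the right in each set, and the C1qc intervals cover 0 in all 3.

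The members did not share one common difference between the sexes. For each pair of the 9 tested members the log2 ratio within an array was taken, which does not depend on how an array was scaled apart from the small constant added. The 6 female DHT arrays were compared with the 6 male DHT arrays in an exact two-sided permutation test over 924 splits. Arrays were exchanged without regard to DHT time, so the matching of the sexes by time was not held. There were 36 pairs with Benjamini-Hochberg adjustment over them, and the test was chosen after the values were seen. The ratio differed for 18 pairs. Of the 9 ratios of Ctss, Lgals3 or Lyz2 to a C1q chain, 9 were higher in females, by 0.51 to 1.12 on the log2 scale (adjusted exact p = 0.00708 to 0.0146). Ctss, Lgals3 and Lyz2 were set apart because they differed most between the sexes on these same arrays, and the C1q chains differed less. The shared direction of the 9 ratios therefore followed from that grouping and is not separate evidence. Counts by group in the next paragraph depend on the grouping too. The count of 18 of 36 pairs does not, but 16 of these 18 set Ctss, Lgals3 or Lyz2 against a member outside that group. The 36 ratios share the same 9 genes and restate their unequal sex differences, so they are not separate evidence either.

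The log2 ratio of Ctss to C1qc averaged -0.75 ± 0.28 on the female and -1.86 ± 0.29 on the male arrays (SD, 6 arrays each). Its exact permutation p was 0.00216, the smallest that the 924 splits allow. Among the C1q chains themselves 0 of 3 ratios passed, with adjusted exact p from 0.548 to 0.797. Of the 15 ratios among the 6 other members (Cd68, Csf1r, Itgam and the C1q chains), 1 passed, that of Itgam to C1qc (adjusted exact p = 0.0260). Ratios to Itgam were the exception for 2 of the 3 leading genes, since Lgals3 over Itgam (adjusted exact p = 0.101) and Lyz2 over Itgam (0.312) did not pass. Among the leading genes, Ctss differed more than Lyz2 (adjusted exact p = 0.0146). A ratio shows unequal change, and it does not say which gene of the pair moved.

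**Figure D5:**
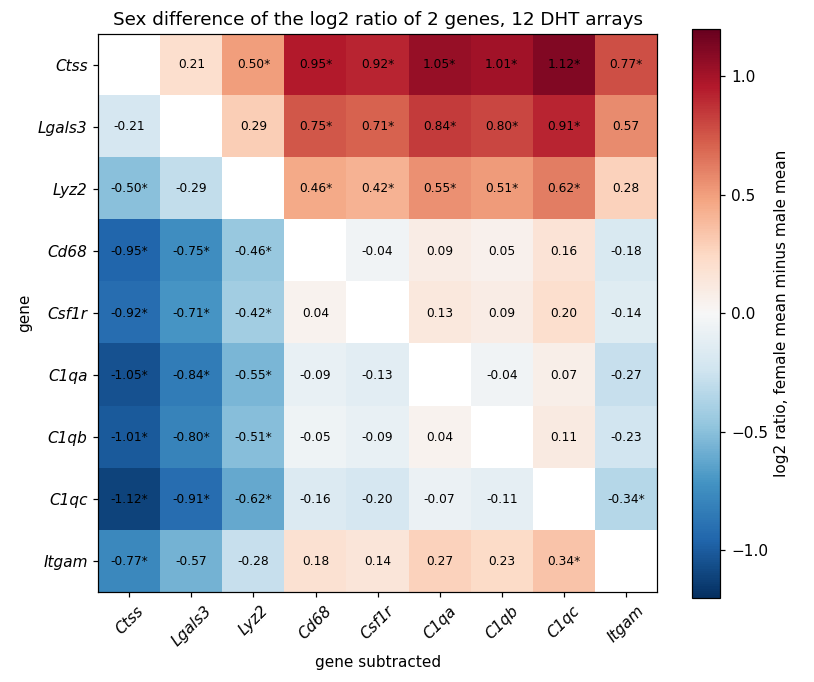
Female minus male mean of the within-array log2 ratio of the gene in the row to the gene in the column, over 6 female and 6 male DHT arrays. Red cells are higher in females and blue cells lower, and a star marks an adjusted exact p under 0.05. The rows of Ctss, Lgals3 and Lyz2 are red across the other members, up to 1.12 for Ctss over C1qc, while the block of Cd68, Csf1r and the C1q chains is pale, with values of at most 0.20.

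Whether DHT acted unequally in the sexes was tested with a sex by DHT term. Of the 9 members 0 passed with 16 arrays and 0 with 15, where 0% of all genes did in both and 365 and 163 genes had an unadjusted p under 0.05. With 16 arrays 0 of 9 differences of the response were positive, where 46.4% of all genes were. They lay between -1.30 and -0.47 on the log2 scale. With 15 arrays 5 of 9 were positive, where 49.9% of all genes were, and they lay between -0.15 for Ctss and 0.33 for Itgam. This comparison rests on the male vehicle arrays. Without male vehicle replicate 1, which leaves the muscle-rich array as the only male vehicle array, 9 of 9 members and 1917 genes passed.

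Arrays of one sex differed in which macrophage genes were high together. Over 15 arrays, as deviations from the mean of each sex, Ctss and Lgals3 correlated with r = 0.84, C1qb and Csf1r with r = 0.83, and C1qa and C1qc with r = 0.75. C1qa and C1qb had r = -0.03, although both encode chains of C1q, and C1qb and Itgam had r = -0.44. These are descriptions over 15 arrays that share their scaling, and C1qa, C1qc and Itgam were also the members that moved most with the antisense, fibroblast and adipocyte levels. The tested genes most like the mean of the members over 15 arrays, sex difference included, were Pld3 (r = 0.97), Col3a1 (r = 0.95), Col1a1 (r = 0.94), Rnf149 (r = 0.94) and Ccl8 (r = 0.94). Over 16 arrays they were Crtap, Serpinh1, Ccl8, Cd53 and Adam12, so that Ccl8 was in both.

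Many genes of a further macrophage list were higher in females too. That list was not limited to genes of macrophages alone, and which cells gave the signals was not tested. In the lists that follow, counts are from the 15 arrays, where 8.83% of all genes were higher and 7.76% lower in females. Of 19 tested further macrophage genes, 14 were higher and 0 lower in females, with a median difference of 0.55 where that of all genes was 0.00. With 16 arrays 6 of the 19 passed and on the 12 DHT arrays 8. Mpeg1, which encodes a pore-forming protein of phagocytes, averaged 2598 ± 423 in females and 1269 ± 239 in males (SD, n = 8 and 7), a difference of 1.04 ± 0.13 (log2, SE, limma adjusted p = 0.000249). Adgre1, which encodes the mouse macrophage marker F4/80, averaged 799.8 ± 132 in females and 440 ± 68.0 in males (adjusted p = 0.000668, limma).

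Partners of the members were counted in the same way. The lists share genes, among them Ptpn6, Spi1, Mrc1, Itgax and Cebpa, so their counts are not independent of each other. Of 8 tested leucocyte integrin and adhesion genes, 3 were higher and 0 lower, among them Itgb2, the beta chain that pairs with Itgam, at 1.13 ± 0.16 (adjusted p = 0.000508, limma), and Itgax at 0.83 ± 0.13. Of 15 lysosomal genes, 5 were higher and 0 lower (3 and 0 with 16 arrays), among them the proteases Ctsh at 0.82 ± 0.10, Lgmn at 0.85 ± 0.11 and Ctsk at 0.59 ± 0.10. Of 8 genes of Fc receptors and their signalling, 2 were higher and 0 lower, Fcgr1 at 0.71 ± 0.12 and Ptpn6 at 0.83 ± 0.21. Of 11 complement genes, 4 were higher and 2 lower, against 2 higher (Cd93 and C3ar1) and 0 lower with 16 arrays. The receptors Cd93 (0.94 ± 0.10) and C3ar1 (1.01 ± 0.13) were higher, and Cd59a, an inhibitor of the membrane attack complex, was lower (-0.78 ± 0.09).

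Of 9 genes of Csf1r ligands and signalling, 3 were higher and 1 lower, against 1 higher (Irf8) and 0 lower with 16 arrays. The higher ones were the transcription factors Irf8 (0.83 ± 0.13), Maf (0.69 ± 0.21) and Spi1 (0.55 ± 0.17), and the lower one was Cebpa (-0.33 ± 0.07), which adipocytes express as well. Of 8 genes of resident or alternatively activated macrophages, 4 were higher and 1 lower (2 and 0 with 16 arrays), with Arg1 at 1.48 ± 0.25 and Lyve1 at -0.58 ± 0.12. Of 2 tested inflammatory products 1 was higher, the interleukin-1 receptor antagonist Il1rn (0.94 ± 0.17), while 10 more of that list, Tnf, Il1b and Il6 among them, were below the limit on low signals.

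Of 9 genes of lipid-laden macrophages, 3 were higher and 2 lower, against 2 higher (Mmp12 and Itgax) and 0 lower with 16 arrays. The higher ones held the widest gap of these lists, in Mmp12, the macrophage elastase. Mmp12 lay between 2168 and 3251 on the 8 female arrays and between 107 and 462 on the 7 male arrays, and was at 65.9 on the muscle-rich array. The Mmp12 difference was 4.02 ± 0.17 (log2, SE, limma adjusted p = 6.10e-08), which is 16.2 times. Acp5 was lower in females (-0.46 ± 0.07). For DHT against vehicle and for late against early DHT, 0 genes of each of these lists passed, with 16 and with 15 arrays.

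Markers of other cells moved with sex as well, and their part in the macrophage differences was not tested. Of 8 fibroblast genes 6 were higher and 0 lower in females (5 and 0 with 16 arrays), and their summed signal was 62549 to 97264 in females, against 32559 to 37001 on the 7 male arrays. All 4 tested mast cell genes and 4 of 7 B cell genes were higher with 15 arrays, against 1 mast cell gene (Kit) and 1 B cell gene (Jchain) with 16. Of 15 adipocyte genes 0 were higher and 8 lower with 15 arrays, against 0 in either direction with 16, with sums of 137704 to 189732 in females, against 164298 to 233339 on the 7 male arrays. Of 17 skeletal muscle genes 8 were lower, against 1 with 16 arrays (Tcap), with sums of 20441 to 52490 in females, against 41309 to 72265. Of 9 endothelial genes 2 were higher and 1 lower (0 and 0 with 16 arrays), and of 2 T cell genes 1 was higher, Thy1, which fibroblasts express as well. Of 10 genes of antigen presenting cells, 4 of the exocrine pancreas and 5 of neutrophils 0 passed in either direction. The T cell marker Cd3g was between 5.70 and 31.8 on the 15 arrays, and the neutrophil genes S100a9 (28.6 to 147) and Ngp (29.1 to 64.4) were low.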

How the data were processed

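The authors deposited linear intensities, 1 signal for each probe set on each array, from MAS5 (no version named), per the submitters' processing notes. Their trimmed mean was 500 on each array, so levels are relative to the whole array, and detection calls were not used. Of 12488 probe sets, 66 controls and those with several or no symbols named no gene. The brightest probe set stood for each gene, and genes below a signal of 116 (the 40th percentile of mean log2 signal) were left out. limma 3.58.1 (R 4.3.3) was fitted to log2(signal + 16), with sex and time as factors, 8 residual degrees of freedom, eBayes with a trend, and Benjamini-Hochberg adjustment over 5686 genes. The added 16 makes fold changes understate those of low genes. Times in both sexes are 1 array each, so the spread includes unequal responses of the sexes. The fit was tested on simulated data. Exact permutation tests used scipy 1.17.1.

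Replicate numbers follow accession order and pair nothing. The labels name no array batch. All members were named, with up to 4 genes of each list by smallest p and the 5 genes most like the members. Members and lists were chosen with earlier results of these data known. Alternatives were other pseudocounts, no low-signal limit, quantile normalization, array weights, an antisense covariate, subsets and each array left out. Symbols of all 10 members matched RefSeq by Entrez identifier.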

Additional observations from a re-analysis of the deposited data

Results flagged for a closer look

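Of 30 groups of 4 to 10 arrays examined for single arrays far from the rest, 4 held one. Chance gives about 1 in 20 for a single group, but the 30 groups share arrays, so 4 of 30 cannot be set against it. Among the 4 vehicle arrays, which are of both sexes, the muscle-rich array was the far one for 3 genes. C1qc was at 1033 on it, against 7176 to 8006 on the other vehicle arrays, a gap of 0.946 of the whole range. C1qa was at 930.2, against 5420 to 6632 (gap 0.897), and Cd68 at 302, against 1452 to 1950 (gap 0.84). The fourth was Lyz2 on the female DHT array at 24 h, with 8598 against 5492 to 6279 on the other 5 female DHT arrays (gap 0.701). Ctss (5744) and Lgals3 (1784) were also highest among female DHT arrays on that array, with gaps that stayed under the critical value.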

How the results depend on the processing

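No member was called for DHT against vehicle, for a single time or for late against early DHT under any alternative run, and Ctss was higher in females in 28 of 28. The additive fit rests on 1 array per sex and time, low signals hold more background, and 16 arrays limit the precision. No paired analysis was possible because the labels give no replicate numbers, other than the matching of the sexes by DHT time, which the fit holds with time as a factor. For female against male, each of the 9 tested members was higher in females in 28 of 28. For sex by DHT, signs changed between fits. The differences of C1qa, C1qc, Cd68, Csf1r and Itgam were positive in 4 of 26 and negative in the others.

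For female against male, genes called (members called in brackets) were 327 (3) with 16 arrays, 1205 (5) with array weights, 752 (5) on the 12 DHT arrays, and, with 15 arrays, 1048 (6, with Itgam in place of Csf1r) with the antisense covariate and 885 (7) after quantile normalization. With all 12422 probe sets, probe sets rather than genes were counted. They were 1100 (7) with 15 arrays and 833 (6) on the 12 DHT arrays, both chosen after seeing the data. Leaving out 1 array each gave 197 to 943 genes and 2 to 6 members, the most without the muscle-rich array.

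For DHT against vehicle, 4 genes were called, against 0 with times as replicates on 16 arrays (638 at an unadjusted p under 0.05), 0 on 15 (174) and 0 in females alone (125), and 1 in males alone, in limma throughout. Leaving out 1 array each gave 2 to 5. With array weights 7 genes were called at 1 h, 14 at 6 h, 8 at 12 h and 2 at 18 h. With 15 arrays and the antisense covariate 5 were called at 12 h, 2 at 18 h and 2 at 24 h. With 15 arrays after quantile normalization 2 were called at 18 h and 1 at 24 h, and with all probe sets 2 probe sets at 18 h. Leaving out 1 array each gave 0 to 1 at 1 h, 3 h and 24 h, 0 to 5 at 6 h, 0 to 4 at 12 h and 0 to 2 at 18 h.

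For late against early DHT, 0 genes were called, against 7 in females alone, 3 in males alone, 4 on the 12 DHT arrays and 1 with array weights. With 15 arrays it was 1 with the antisense covariate and 3 after quantile normalization. With all probe sets, 2 probe sets were called with 15 arrays and 2 on the 12 DHT arrays. Leaving out 1 array each gave 0 to 2. For sex by DHT, 4 genes were called with all probe sets and 15 arrays, and leaving out 1 array each gave 0 to 1917 genes and 0 to 9 members, the most without male vehicle replicate 1. Fewer or other arrays enter these fits by construction, and beyond that the cause was not tested.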
